A study of Homo sapiens with 16 samples.

Results

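Subtelomeric peaks were defined as the peaks of 9 immunoprecipitations with the 1H6 antibody against G-quadruplexes (G4s) whose midpoint lay within 2 Mb of an autosome end of hg38, with the short-arm ends of chromosomes 13, 14, 15, 21 and 22 left out, so that 39 ends were considered. They numbered 691 of the 40118 peaks in the 9 lists, and they were compared with the other 36912 of the 37603 autosomal peaks. All samples were HEK293T, a human embryonic kidney cell line. G4 DNA-IPnat and G4 DNA-IPdenat were immunoprecipitations from purified genomic DNA of untransduced cells, kept native or denatured, and G4-ChIP was made from fixed and sheared chromatin. The 6 AbC G4-ChIP lists came from cells stably transduced with a non-targeting shRNA (CT) or with an shRNA against the CGG repeat binding protein CGGBP1 (KD), in which the antibody captured G4s in permeabilized cells. In the nuc lists nothing else was added, in the ut lists control and carrier DNA with preformed antibody-G4 complexes were mixed into the lysate, and in the tr lists control and carrier DNA were transfected into the cells before capture. An Ion Torrent S5 gave the reads of CTnuc and KDnuc, which shared 1 input, and a MinION those of the other lists. Each list stood for 1 library pooled from 4 replicates by the authors, so differences between lists had no replicate within a list, and a p-value over lists measured only their spread.

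Chromosome ends carry tandem arrays of the hexamer TTAGGG, whose G-rich strand is a textbook G4 former. The subtelomeric sequence next to them is a patchwork of segments that are duplicated between ends, of minisatellites and of satellite arrays, and it is richer in G and C than the rest of most chromosomes. The 4q and 10q ends carry D4Z4, a GC-rich macrosatellite in which each unit holds a copy of the double homeobox gene DUX4, and beta satellite, a repeat with a unit of about 68 bases, is known to lie next to it. The hg38 assembly opens most ends with unknown bases, 10 kb long at 24 of the 39 ends and up to 160.0 kb long, so that distances were counted from the assembled end, unknown bases included.

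The sequences of the regions covered by the most lists show what the antibody lists shared at the ends. In each, runs of 3 or more G or C are in capitals, and the bases are those around the middle of the stretch that the most lists covered, read from hg38. The 5 that follow were shown because their regions were in 7 to 9 of the 9 lists and because they hold 1 unit of 68 or 69 bases at 3 chromosome ends.
18p, in ROCK1P1, chr18:106848-107047, plus strand: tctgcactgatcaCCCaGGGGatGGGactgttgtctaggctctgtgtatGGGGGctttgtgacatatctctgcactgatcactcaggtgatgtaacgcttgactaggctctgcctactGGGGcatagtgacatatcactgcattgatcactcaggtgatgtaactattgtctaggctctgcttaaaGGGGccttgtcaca
10q, beyond DUX4L20, chr10:133686823-133687022, plus strand: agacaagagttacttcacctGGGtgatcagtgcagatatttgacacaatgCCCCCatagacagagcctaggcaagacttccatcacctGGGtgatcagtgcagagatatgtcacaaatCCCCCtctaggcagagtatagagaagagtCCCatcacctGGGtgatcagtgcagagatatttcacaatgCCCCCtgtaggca
4q, in the DUX4 gene, chr4:190177514-190177713, plus strand: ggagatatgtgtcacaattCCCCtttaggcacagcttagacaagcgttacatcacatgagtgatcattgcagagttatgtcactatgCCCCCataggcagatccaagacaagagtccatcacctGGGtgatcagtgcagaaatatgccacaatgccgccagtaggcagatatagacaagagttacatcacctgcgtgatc
10q, beyond DUX4L15, chr10:133763379-133763578, plus strand: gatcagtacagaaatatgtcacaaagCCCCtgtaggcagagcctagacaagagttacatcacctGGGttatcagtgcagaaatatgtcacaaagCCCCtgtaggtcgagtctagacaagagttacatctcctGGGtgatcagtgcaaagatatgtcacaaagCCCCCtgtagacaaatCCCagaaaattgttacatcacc
4q, in the DUX4 gene, nearer the end, chr4:190181286-190181485, plus strand: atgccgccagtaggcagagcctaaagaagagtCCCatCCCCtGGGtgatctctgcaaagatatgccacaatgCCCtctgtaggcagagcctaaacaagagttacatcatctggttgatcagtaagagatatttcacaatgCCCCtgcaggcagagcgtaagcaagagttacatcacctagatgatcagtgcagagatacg
The unit of the 18p sequence lay in the opposite direction at 4q and 10q. Over 68 bases without gaps, the best match of the 18p sequence to the reverse complement of the other 4 was 57 to 62 bases, against 29 to 31 bases on the same strand.

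The next 3 are minisatellites with a tandem share of 100% and units of 38, 34 and 39 bases. They were shown because, among regions tied at that share, they were in the most lists. The third, at 6q and in 5 lists, was itself tied with regions at 17p and 15q, with units of 63 and 91 bases.
7q, in PTPRN2, chr7:158147918-158148117, plus strand: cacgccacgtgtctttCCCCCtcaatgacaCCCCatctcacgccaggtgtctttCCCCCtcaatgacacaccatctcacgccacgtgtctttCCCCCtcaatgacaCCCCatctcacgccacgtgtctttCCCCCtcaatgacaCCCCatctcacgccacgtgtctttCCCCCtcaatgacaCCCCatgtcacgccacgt
4q, intergenic, chr4:189234388-189234587, plus strand: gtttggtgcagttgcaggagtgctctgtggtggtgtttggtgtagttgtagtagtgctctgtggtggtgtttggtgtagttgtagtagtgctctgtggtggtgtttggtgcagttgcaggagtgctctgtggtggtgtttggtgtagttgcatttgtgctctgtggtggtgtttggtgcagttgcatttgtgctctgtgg
6q, in FAM120B, chr6:170399133-170399332, plus strand: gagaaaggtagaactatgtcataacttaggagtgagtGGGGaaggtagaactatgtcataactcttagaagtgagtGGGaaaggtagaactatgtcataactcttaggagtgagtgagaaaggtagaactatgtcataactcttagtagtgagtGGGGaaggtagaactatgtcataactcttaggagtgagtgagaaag
The PTPRN2 repeat carries a run of C in each unit, and counted at every base the 200 bases held 23 CCC and no GGG triplets. The 4q minisatellite held neither, in the 200 bases shown and over its whole 2470 bases, although 7 lists had a peak there.

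Finally, a GC-rich stretch of the D4Z4 array of 4q and a stretch without a tandem unit were shown, the former chosen after its values were seen.
4q, DUX4L unit, chr4:190080872-190081071, plus strand: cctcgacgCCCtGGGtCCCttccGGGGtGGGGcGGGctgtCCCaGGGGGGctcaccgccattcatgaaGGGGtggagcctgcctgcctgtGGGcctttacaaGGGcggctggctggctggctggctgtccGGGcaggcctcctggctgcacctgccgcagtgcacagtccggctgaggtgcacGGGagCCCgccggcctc
1p, mitochondrial copy, chr1:633986-634185, plus strand: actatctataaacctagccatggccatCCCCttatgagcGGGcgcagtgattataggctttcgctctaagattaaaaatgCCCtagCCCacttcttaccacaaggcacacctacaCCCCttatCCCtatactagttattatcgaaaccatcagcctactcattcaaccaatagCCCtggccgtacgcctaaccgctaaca
The D4Z4 stretch had a GC content of 73.0% and 20 triplets of G or C, and the 1p stretch, in a nuclear copy of mitochondrial DNA, had 47.0% and 9.

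The share of peaks in the windows was set against the share of sequence there. The 39 windows held 76.2 Mb of known sequence, which was 2.765% of the known autosomal bases. The share of a list's autosomal peaks that fell there was 1.37% in CTnuc (51 of 3737, 95% exact binomial interval 1.02 to 1.79), 1.65% in KDnuc (122 of 7388, 1.37 to 1.97), 2.19% in CTut (74 of 3380, 1.72 to 2.74) and 2.28% in KDut (66 of 2896, 1.77 to 2.89). It was 2.60% in CTtr (61 of 2344, 2.00 to 3.33) and 2.37% in KDtr (56 of 2359, 1.80 to 3.07). G4-ChIP had 1.05% (15 of 1425, 0.590 to 1.73), G4 DNA-IPnat 4.48% (10 of 223, 2.17 to 8.09) and G4 DNA-IPdenat 1.70% (236 of 13851, 1.495 to 1.93). The share was thus below that of the sequence in 8 of 9 lists and above it in G4 DNA-IPnat alone, whose interval reached below it. The mean difference was -0.58 percentage points ± 1.00 (SD, n = 9 lists) and did not pass an exact sign-flip permutation test over lists (two-sided p = 0.129, adjusted p = 0.215 over 5 measures by Benjamini-Hochberg). Without G4 DNA-IPnat it was -0.86 (adjusted p = 0.0195, exact test). With a window of 1 Mb its sign turned, to 0.53 (adjusted p = 0.132, exact test).

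Members crowded towards the ends, where peaks were dense in the last 100 kb and sparse beyond 1 Mb. Within 100 kb of the end, the density of peaks per Mb of known sequence was above that of the rest of the autosomes in 9 of 9 lists. Ratios ran from 1.81 in G4 DNA-IPdenat to 20.1 in G4 DNA-IPnat, which had only 4 peaks there, while G4-ChIP had 5. CTnuc had 8.38 peaks per Mb there against 1.375 in the rest of the autosomes, KDnuc 12.4 against 2.71, CTut 7.98 against 1.23, KDut 4.79 against 1.06, CTtr 5.985 against 0.852, and KDtr 6.78 against 0.859. Between 1 and 2 Mb from the end the density was below that of the rest of the autosomes in all 9 lists, with ratios from 0 in CTnuc, which had no peak there, to 0.571 in G4 DNA-IPdenat. The D4Z4 arrays of 4q and 10q, with the sequence between their blocks, were then left out, a choice made after seeing the data. The ratio within 100 kb stayed above 1 in 9 lists, from 1.57 to 10.0, the latter from 2 peaks of G4 DNA-IPnat. The ends 4p and 15q, which also held many members, were kept, so the crowding is not read as general to all ends.

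Median distances were short in 8 lists and long in G4 DNA-IPdenat. The median was 110.2 kb in CTnuc, 224.0 kb in KDnuc, 204.5 kb in CTut, 299.7 kb in KDut, 232.4 kb in CTtr, 138.8 kb in KDtr, 109.9 kb in G4 DNA-IPnat and 157.0 kb in G4-ChIP. In G4 DNA-IPdenat it was 977.2 kb, close to the 1 Mb of an even spread, and 113 of its 236 members, 47.9%, lay beyond 1 Mb, a zone with 51.1% of the sequence. The members just inside the limit lay 1978, 1966 and 1965 kb from their ends and the peaks just outside it 2002, 2007 and 2015 kb, all 6 from G4 DNA-IPdenat, with a fold over the input of 4.155, 5.39 and 5.58 inside and 4.23, 6.05 and 5.99 outside.

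**Figure D1:**
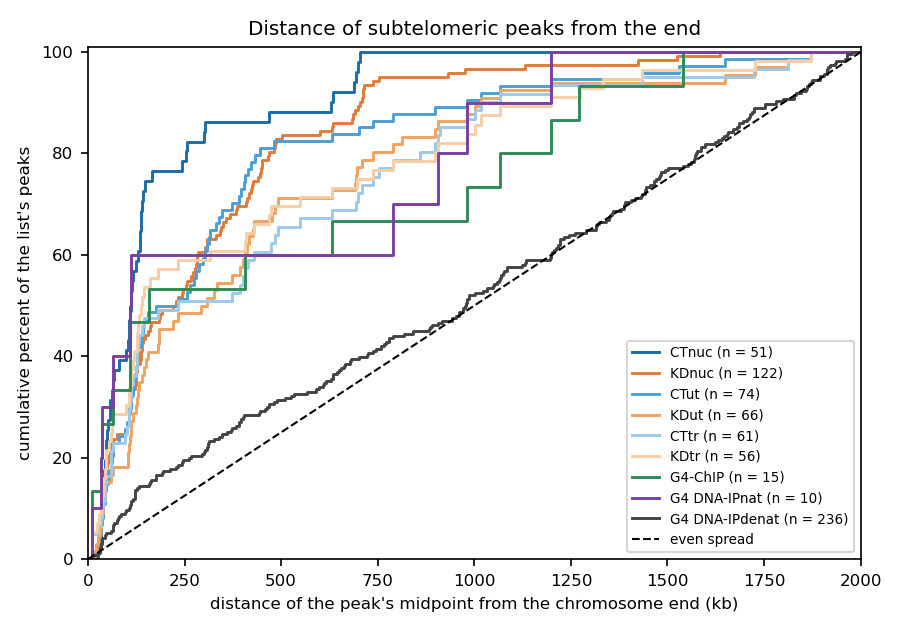
Cumulative percent of each list's subtelomeric peaks (y axis) against the distance of the peak's midpoint from the chromosome end in kb (x axis), with 1 line for each of the 9 lists and a dashed line for an even spread. Medians of 8 lists lay between 109.9 and 299.7 kb, while G4 DNA-IPdenat, at 977.2 kb, followed the dashed line.

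Members concentrated on few ends. The 5 ends with the most members were 15q with 116, 10q with 72, 4q with 65, 4p with 47 and 1p with 34, together 48.3% of all members, and 13q had none. Of the 430 members of the AbC G4-ChIP lists, 255 or 59.3% lay on 4p, 4q, 10q and 15q, against 37 of 236 or 15.7% in G4 DNA-IPdenat. Members of all 9 lists were found at 4 ends, 1p, 4q, 10q and 18p, and 6 ends (2q, 3q, 8p, 8q, 10p and 22q) had members of G4 DNA-IPdenat alone. These 6 ends held between 2 and 6 peaks each.

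The end with the most members, 15q, differed most between lists. It held 43 peaks in KDnuc, 21 in CTut, 14 in KDut, 8 in CTtr, 7 in KDtr, 6 in CTnuc, 17 in G4 DNA-IPdenat and none for G4-ChIP or G4 DNA-IPnat. As a share of the members of each list, which differ in number, 15q held 35.25% in KDnuc against 11.8% in CTnuc, 21.2% in KDut against 28.4% in CTut, and 12.5% in KDtr against 13.1% in CTtr. The KDnuc peaks at 15q had a fold over the input from 4.11 to 5.23 with a median of 4.635, close to the 4.655 of all KDnuc members, and 6 of 43 reached a -log10 q of 4. Of these peaks 39 lay within 0.5 Mb of the end. Those that overlapped a peak of another list numbered 20 of 43, where 56.9% of all KDnuc peaks did. The 116 peaks merged into 70 regions, of which 48 were in 1 list and 3 in 5 or more. One of the latter, chr15:101962307-101968106, lay 23.8 kb from the end over WASH3P, a pseudogene of the WASH actin regulators, and had a fold of 4.88 in CTnuc, 4.82 in KDnuc, 3.875 in CTut, 3.77 in KDut, 3.61 in CTtr and 4.42 in KDtr.

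**Figure D2:**
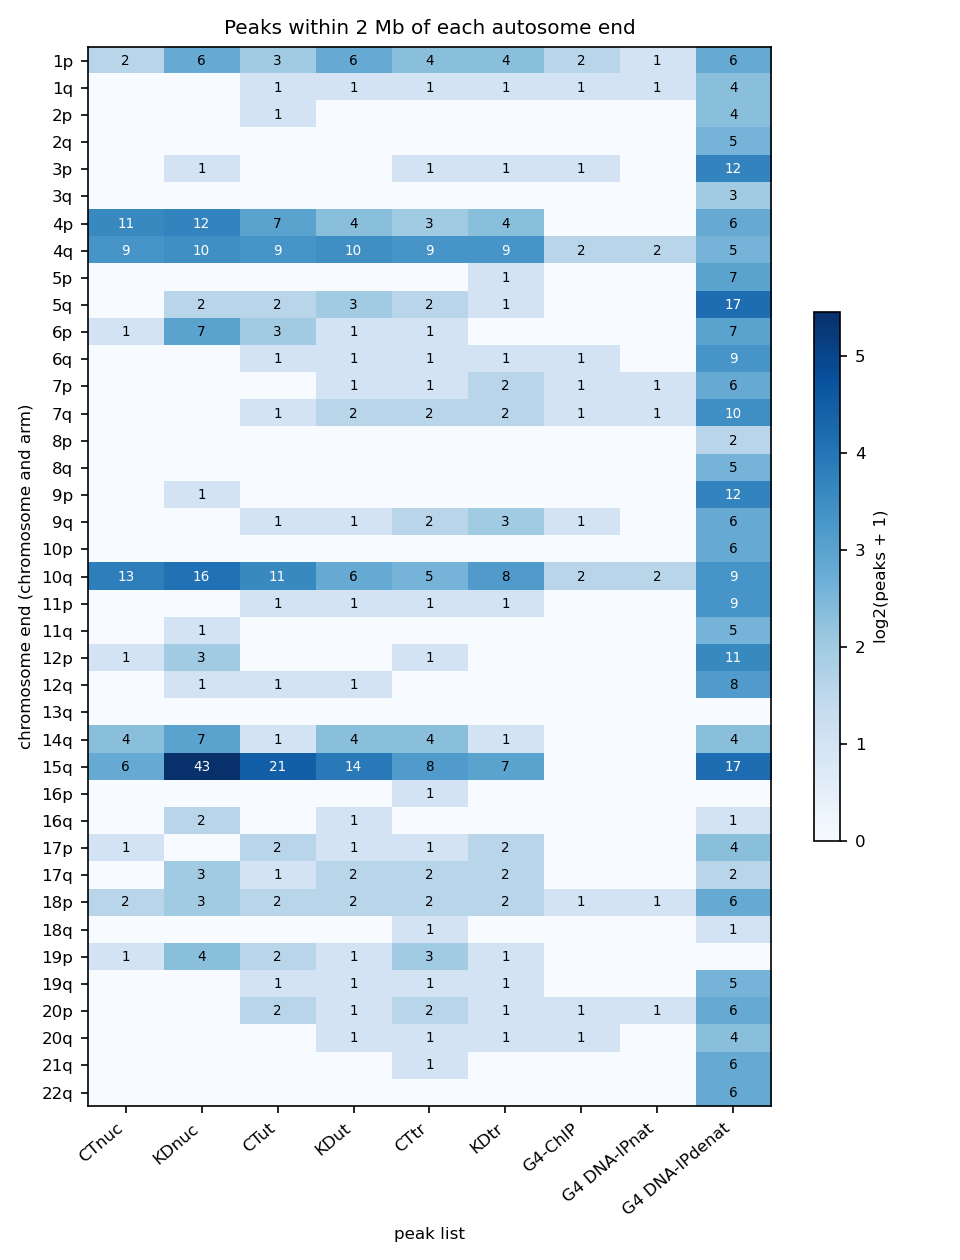
Number of peaks within 2 Mb of each of the 39 autosome ends (rows, chromosome and arm) in each of the 9 lists (columns), with the colour giving log2(peaks + 1) and empty cells standing for 0. The rows 4p, 4q, 10q and 15q carried most AbC G4-ChIP peaks, whereas G4 DNA-IPdenat had peaks at 36 ends.

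Overlapping members were merged into 381 regions, most of them found in 1 list. In 1 list were 294 regions, 209 of them of G4 DNA-IPdenat and 53 of KDnuc. In 2 lists were 28 regions, in 3 or more lists were 59 regions with 341 members, 49.35% of all, and in 5 or more lists were 31 regions at 16 ends. Of 170 regions with an AbC G4-ChIP peak, 13 had peaks of all 6 AbC G4-ChIP lists and 28 had a peak of any of the 3 other lists. Over all peaks of the list, 13.3% in G4 DNA-IPdenat and 56.9% in KDnuc were overlapped by another list. Merged regions outside the windows were not counted, so these numbers are not read as particular to the ends.

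The 4 regions with peaks of all 9 lists lay at 18p, 4q and 10q and were built in part of the 68-base unit. Their tandem shares ran from 40.9% to 75.2%. The region chr18:106114-112532, with ROCK1P1, a pseudogene of the kinase ROCK1, and the microRNA gene MIR8078, had a tandem share of 75.2%. Its highest fold over the input was 25.9 in CTnuc, 29.7 in KDnuc, 8.33 in CTut, 15.8 in KDut, 8.45 in CTtr, 10.2 in KDtr, 12.6 in G4-ChIP, 15.7 in G4 DNA-IPdenat and 6.99 in G4 DNA-IPnat. The order was led by both nuc lists, and the remaining 7 stayed below 16.

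At 10q, the region chr10:133683070-133690442, beginning at the D4Z4 copy DUX4L20, gave 29.1 in CTnuc and 34.6 in KDnuc, but 7.34, 5.71, 5.24 and 6.46 in CTut, KDut, CTtr and KDtr, 11.9 in G4-ChIP, 11.2 in G4 DNA-IPdenat and 6.495 in G4 DNA-IPnat. The region chr10:133759238-133764566, beginning at DUX4L15, gave 16.6 in CTnuc, 20.4 in KDnuc, 10.6 in CTut, 11.7 in KDut, 9.38 in CTtr, 9.84 in KDtr, 4.79 in G4-ChIP, 15.7 in G4 DNA-IPdenat and 7.96 in G4 DNA-IPnat. In each of these 10q regions the nuc lists were again highest.

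At 4q, the region chr4:190173716-190180207 in the DUX4 gene gave 19.5 in CTnuc, 23.1 in KDnuc, 8.19 in CTut, 7.88 in KDut, 5.81 in CTtr, 7.92 in KDtr, 12.05 in G4-ChIP, 18.5 in G4 DNA-IPdenat and 6.38 in G4 DNA-IPnat. A neighbouring region nearer to the end, chr4:190180835-190181974, was in 7 lists and gave 19.0 in CTnuc and 21.75 in KDnuc against 5.50 to 8.675 in the other 5. Peaks that were mostly of a 67 to 70 base unit numbered 34, in all 9 lists, at 4 ends (12 on 18p, 11 on 4q, 10 on 10q and 1 on 9q), and in the other autosomal peaks of any list there was at most 1. Each fold is relative to the input of its own list, and the folds of different lists were not scaled to each other.

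The fifth region, chr1:628741-635059, was in 8 lists and had no tandem unit. It covers MTND1P23, MTND2P28, MTCO1P12 and other copies of mitochondrial genes, and the mitochondrial genome itself was not in the set of sequences to which the authors aligned the reads. The fold was 22.25 in CTnuc, 46.0 in KDnuc, 5.53 in CTut, 20.3 in KDut, 12.5 in CTtr, 19.7 in KDtr, 6.63 in G4 DNA-IPdenat and 5.62 in G4-ChIP, and each KD list was above its CT list. It held the highest fold of any member in KDnuc, KDut, CTtr and KDtr. The highest folds in 4 others were 29.1 in CTnuc and 12.7 in CTut, both at 10q, 12.6 in G4-ChIP at 18p and 24.3 in G4 DNA-IPdenat at 7p.

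**Figure D3:**
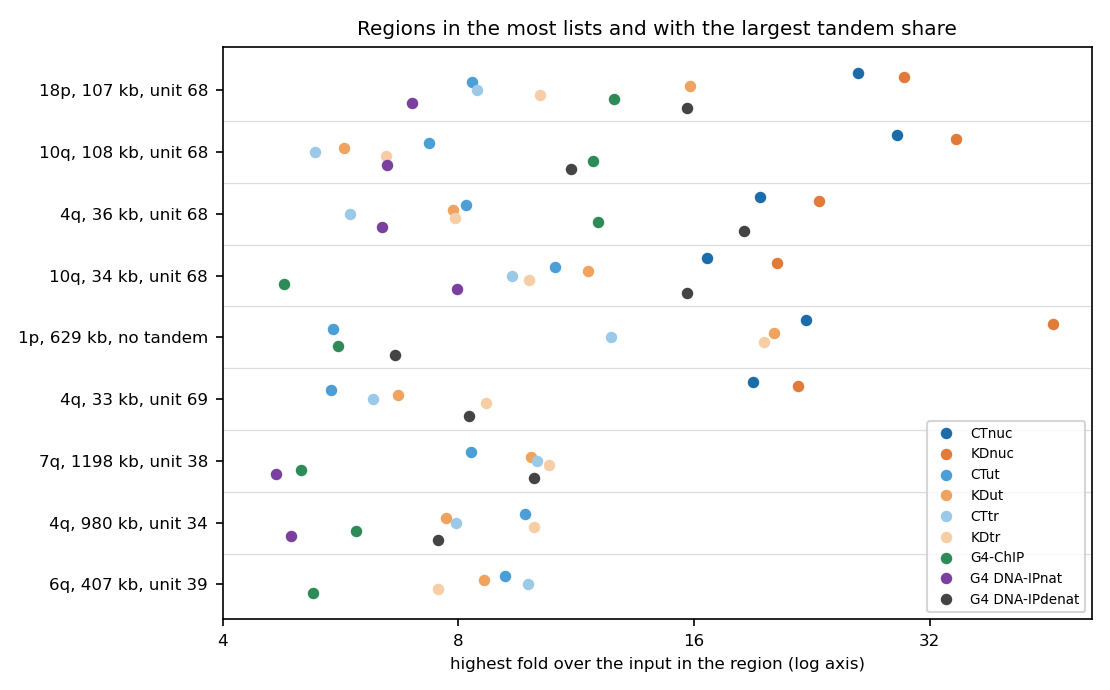
Highest fold over the input (x axis, log scale) in each list that had a peak, for the 6 regions in the most lists and the 3 with the largest tandem share, ties by number of lists (rows, with the end, the distance of the nearest peak midpoint and the repeat unit in bases). CTnuc and KDnuc, from 16.6 to 46.0, were highest in the upper 6 regions and had no peak in the lower 3.

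The GC-rich units of D4Z4 held peaks in the 6 AbC G4-ChIP lists and in no other list. In hg38 the copies of DUX4 follow each other at 3293 to 3300 bases on 4q (8 copies) and at 3299 to 3310 bases on 10q (12 copies in 2 blocks), and each copy has a GC content between 73.05% and 73.33%. In the arrays, taken from the first to the last gene of the DUX4 family in the last 150.0 kb with 3.4 kb on either side, lay 105 members. This span includes the sequence between DUX4L2 and DUX4 on 4q and between the 2 blocks on 10q. The GC content of its members went down to 35.69%, and values without the arrays leave out the whole span. Of the 105 members, 59 had a GC content of at least 65%, from 69.25% to 77.7%. All 59 were in the 6 AbC G4-ChIP lists, 23 in the nuc and 36 in the ut and tr lists. On 4q they numbered 3 in CTnuc, 5 in KDnuc, 4 in CTut and 5 in each of KDut, CTtr and KDtr, and on 10q 7 in CTnuc, 8 in KDnuc, 6 in CTut, 2 in KDut, 3 in CTtr and 6 in KDtr. The counts were not scaled to the length of the lists, and KDnuc had 7388 autosomal peaks against 3737 in CTnuc.

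G4-ChIP, G4 DNA-IPnat and G4 DNA-IPdenat had 10 members in the arrays, 8 of them of the 68-base unit, and none with a GC content of at least 65%. The GC-rich peaks had a median of 106.0 GGG or CCC triplets per kb, and 53 of 59 held the canonical G4 signature, 4 or more runs of 3 or more G separated by 1 to 7 bases on either strand. Of the 21 array peaks of the 68-base unit 1 held it. Folds of the GC-rich peaks reached 7.00 on 4q in CTnuc, 8.84 in KDnuc, 8.16 in CTut, 7.77 in KDut, 7.17 in CTtr and 8.39 in KDtr. On 10q they reached 6.89 in CTnuc, 6.92 in KDnuc, 12.7 in CTut, 9.52 in KDut, 7.49 in CTtr and 7.63 in KDtr. All 59 had another copy at another chromosome end with an identity of at least 90%. The median best identity was 100%, taken over copies anywhere, other units of the same array included. The unit, and the end, to which such a peak belongs are thus uncertain. Of the 20 DUX4 copies, DUX4L14 was overlapped by no member, and DUX4L7, DUX4L4, DUX4L20 and DUX4L13 by members of all 6 AbC G4-ChIP lists.

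**Figure D4:**
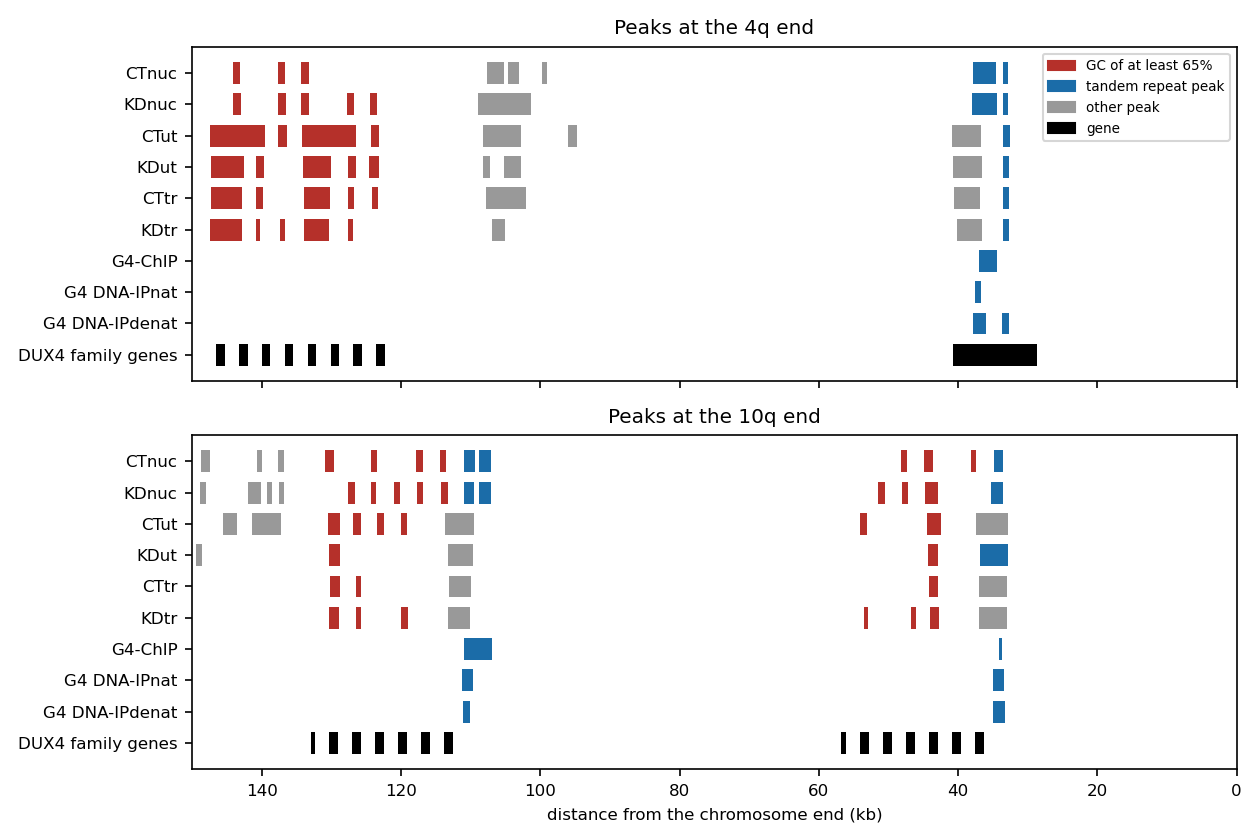
Peaks of the 9 lists (rows) over the last 150 kb of 4q and of 10q, against the distance from the chromosome end in kb (x axis), coloured by GC content of at least 65%, tandem repeat or neither, with the genes of the DUX4 family in black. GC-rich peaks followed the DUX4 copies in the 6 AbC G4-ChIP lists, and the remaining lists had tandem repeat peaks alone.

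Subtelomeric peaks were richer in G and C than other autosomal peaks in every list. The median GC content was 47.9% against 38.9% in CTnuc, 48.0% against 39.1% in KDnuc, 45.1% against 38.4% in CTut, 46.4% against 37.6% in KDut, 47.9% against 38.0% in CTtr and 51.0% against 37.3% in KDtr. It was 48.2% against 35.2% in G4-ChIP, 39.02% against 38.5% in G4 DNA-IPdenat and 47.9% against 39.1% in G4 DNA-IPnat. The mean difference was 8.80 percentage points ± 3.80 (SD, n = 9 lists) and passed the exact sign-flip permutation test (two-sided p = 0.00391, the smallest that 9 lists allow, adjusted p = 0.0195, higher in 9 of 9 lists). The sequence of the windows is itself richer, with a median of 48.1% in 2-kb tiles against 39.6% in tiles elsewhere. Compared with peaks 2 to 10 Mb from the same ends, the members were higher by 2.245 (adjusted p = 0.199, exact test), which did not pass. In that zone G4 DNA-IPnat had only 1 peak.

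G4 DNA-IPdenat was the exception in size, with a difference of 0.51 percentage points, and the median of its members was below the 48.1% of the windows they lay in. Without the D4Z4 arrays the median of the members was between 42.9% and 49.4% in the other 8 lists. The canonical G4 signature was found in 25.5% of members in CTnuc, 24.6% in KDnuc, 31.1% in CTut, 30.3% in KDut, 32.8% in CTtr, 39.3% in KDtr, 26.7% in G4-ChIP, 12.7% in G4 DNA-IPdenat and 2 of 10 in G4 DNA-IPnat. In other autosomal peaks the range was 4.47% to 13.15% and the members were higher in all 9 lists, with no test. Of the 2-kb tiles 36.4% held the signature in the windows and 16.2% elsewhere, so that the share in members was above that of the windows in KDtr alone, although many members were shorter than 2 kb.

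Tandem repeats were counted where a lag of 1 to 500 bases gave at least 80% matching bases, and a peak with at least 50% of its bases in them was called a tandem repeat peak. Such peaks made up 180 of the 691 members. They were scarce in the nuc lists, with 7 of 51 members in CTnuc (13.7%, against 31.85% of other autosomal peaks) and 8 of 122 in KDnuc (6.56%, against 24.98%). The share was 25.7% against 39.6% in CTut, 34.85% against 24.7% in KDut, 45.9% against 25.5% in CTtr and 44.6% against 22.45% in KDtr. It was 86.7% against 10.0% in G4-ChIP (13 of 15), 19.9% against 11.5% in G4 DNA-IPdenat (47 of 236) and 100% against 64.8% in G4 DNA-IPnat (10 of 10). Members were thus lower than other peaks in 3 lists and higher in 6, and the mean difference of 13.6 percentage points ± 30.4 (SD, n = 9 lists) did not pass the exact test (p = 0.215, adjusted p = 0.215). Without G4-ChIP, which has 15 members, it was 5.74 (adjusted p = 0.430, exact test). Compared with peaks 2 to 10 Mb from the same ends it was 29.8 (adjusted p = 0.0195, exact test). In that zone G4 DNA-IPnat had only 1 peak, which was not tandem, and G4-ChIP had 0 tandem peaks of 29. The mean therefore leaned on these lists. Of the 2-kb tiles 2.87% were tandem by the same definition in the windows and 1.87% elsewhere.

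**Figure D5:**
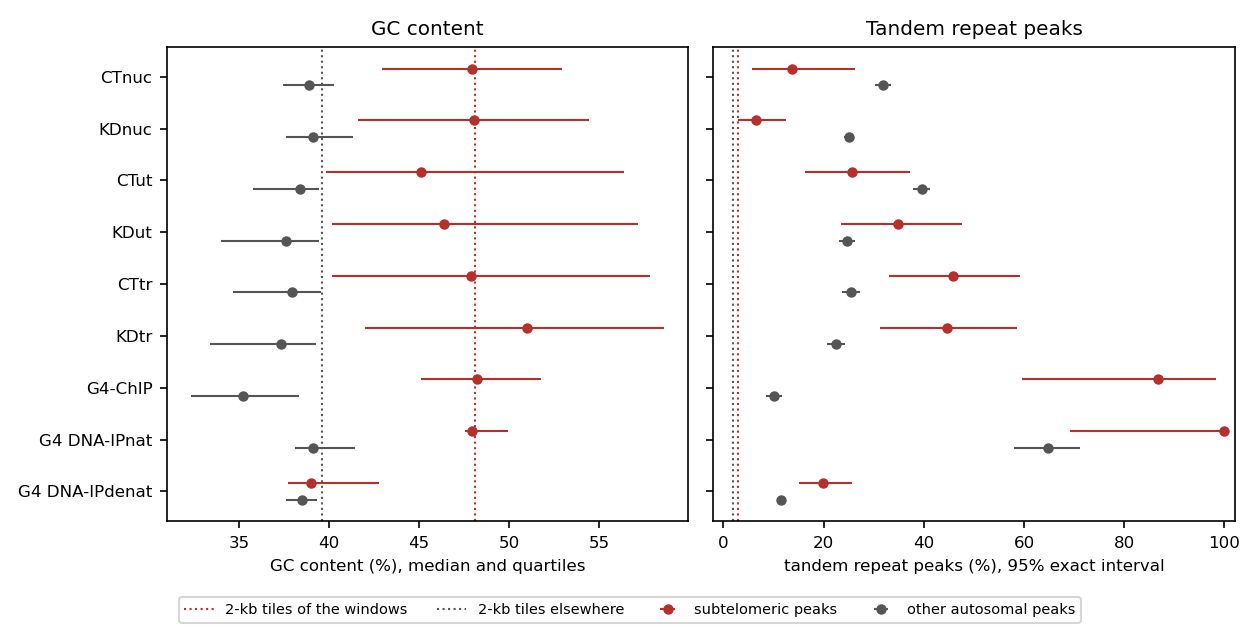
GC content (left, median and quartiles of peaks in percent) and share of tandem repeat peaks (right, percent with 95% exact binomial interval) of subtelomeric and other autosomal peaks in each of the 9 lists, with dotted lines for 2-kb tiles of the windows and elsewhere. GC content was higher at the ends in all 9 lists, while the tandem share was lower in CTnuc, KDnuc and CTut and higher in the others.

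The share of short repeat units differed between lists. Short units of 1 to 66 bases made up 0 of 51 members in CTnuc and 0 of 122 in KDnuc, which by the rule of 3 allow shares of up to 5.88% and 2.46%. They made up 16 of 74 (21.6%) in CTut, 17 of 66 (25.8%) in KDut, 22 of 61 (36.1%) in CTtr, 21 of 56 (37.5%) in KDtr, 8 of 15 in G4-ChIP, 32 of 236 (13.6%) in G4 DNA-IPdenat and 6 of 10 in G4 DNA-IPnat. In other autosomal peaks the share was 2.035% in CTnuc and 1.10% in KDnuc and between 4.255% and 6.43% in the 4 other AbC G4-ChIP lists and G4-ChIP. It was 3.00% for G4 DNA-IPdenat and 38.0% for G4 DNA-IPnat. The limits of 5.88% and 2.46% lay above the 2.035% and 1.10% of other peaks, so the 0 counts are not read as particular to the ends. Of 61 merged tandem regions outside the 67 to 70 base unit, 32 had a peak of a ut or tr list and 1 a peak of a nuc list. Of all 381 merged regions, 106 had a peak of a ut or tr list and 113 a peak of a nuc list. The nuc lists differed from the ut and tr lists in the sequencer, in added DNA and in the part of their numbered peaks that was deposited, and these cannot be told apart.

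Of the minisatellites shown, those of 7q and 6q lay in introns, and that of 4q was intergenic, 28186 bases from the nearest gene. The 38-base unit at chr7:158146920-158149014, in an intron of PTPRN2, which encodes a tyrosine phosphatase-like protein of secretory vesicles, had a fold of 8.30 in CTut, 9.90 in KDut, 10.1 in CTtr, 10.5 in KDtr, 5.03 in G4-ChIP, 10.0 in G4 DNA-IPdenat and 4.68 in G4 DNA-IPnat. The 34-base unit at chr4:189233064-189235533 gave 9.74, 7.72, 7.94 and 9.99 in CTut, KDut, CTtr and KDtr, 5.91 in G4-ChIP, 7.53 in G4 DNA-IPdenat and 4.88 in G4 DNA-IPnat. The 39-base unit at chr6:170398318-170400316, in an intron of FAM120B, gave 9.18 in CTut, 8.64 in KDut, 9.82 in CTtr, 7.53 in KDtr and 5.22 in G4-ChIP. At these 3 places the 4 ut and tr lists lay close together, with no order of CT and KD that held in all of them.

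A 7-base unit at chr7:905358-906797, over ADAP1 and COX19, which encode an ARF GTPase activating protein and an assembly factor of cytochrome c oxidase, gave 24.3 in G4 DNA-IPdenat, 6.95 in G4 DNA-IPnat, 5.95 in KDut, 7.34 in CTtr and 7.32 in KDtr. Near the 20p end, the intergenic region chr20:60229-67595, with a 20-base unit, gave 10.4 in CTut, 10.9 in KDut, 7.19 in CTtr, 9.50 in KDtr, 4.92 in G4-ChIP, 13.0 in G4 DNA-IPdenat and 6.44 in G4 DNA-IPnat. Neither place had a peak in CTnuc or KDnuc.

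The telomeric hexamer was found in few members. In 17 members TTAGGG or CCCTAA made up at least 10% of the bases, from 50.5% to 85.7%, and in 2-kb tiles of the windows 0.0814% (31 tiles) held as much. Of these members 13 lay within 12 kb of the assembled end. No telomeric member was found in CTnuc and KDnuc, whose nearest members lay 26.3 kb from the end of 15q and 18.4 kb from that of 4p. The nearest members of the other 7 lists lay between 10.1 and 10.5 kb from an end and were telomeric.

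The fold over the input was close to that of other autosomal peaks. The median fold was 5.02 against 5.22 in CTnuc, 4.655 against 4.71 in KDnuc, 3.86 against 4.04 in CTut, 4.10 against 3.715 in KDut, 4.51 against 3.74 in CTtr and 5.06 against 4.202 in KDtr. It was 5.27 against 4.61 in G4-ChIP, 4.95 against 4.66 in G4 DNA-IPdenat and 6.47 against 5.86 in G4 DNA-IPnat. On the log2 scale the mean difference was 0.11 ± 0.13 (SD, n = 9 lists), higher in 6 of 9 lists, and it missed the threshold after adjustment (exact sign-flip permutation p = 0.0391, adjusted p = 0.0977). Without tandem repeat peaks it was 0.01 (adjusted p = 0.684, exact test, n = 7 lists), since G4-ChIP and G4 DNA-IPnat then had under 5 members and were left out.

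Sharing with other lists was read against all peaks of the same list. A member was counted as shared where a peak of any other list overlapped it by 1 base or more. Of the members 88.2% were shared in CTnuc, where 87.4% of all peaks were, 56.6% in KDnuc, where 56.9% were, and 85.1% in CTut, where 82.6% were. The members' share was 89.4% in KDut against 73.5% of all peaks, 95.1% in CTtr against 92.7% and 92.9% in KDtr against 87.9%. It was 93.3% in G4-ChIP (14 of 15) against 59.8%, 11.4% in G4 DNA-IPdenat (27 of 236) against 13.3% and 100% in G4 DNA-IPnat (10 of 10) against 100%. The 95% exact interval of the members' share lay above the background in KDut (79.4% to 95.6%) and G4-ChIP (68.05% to 99.8%) and held it in the other 7 lists. Against the other autosomal peaks the mean difference was 5.85 percentage points ± 11.7 (SD, n = 9 lists), which did not pass the exact test (p = 0.172, adjusted p = 0.215). Compared with peaks 2 to 10 Mb from the same ends it was 20.95 (adjusted p = 0.0195, exact test). In that zone G4 DNA-IPnat had only 1 peak, which was shared, and G4-ChIP had 5 shared peaks of 29.

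Pairs of lists overlapped unequally. Of the 51 CTnuc members 38 (74.5%) were overlapped by KDnuc, against 72.0% of other autosomal CTnuc peaks. Of the 122 KDnuc members 37 (30.3%) were overlapped by CTnuc, against 34.9% of the others, so that both shares were near the background. Of the 10 G4 DNA-IPnat members all were overlapped by KDut, CTtr and KDtr, against at least 99.06% of its other peaks, and 4 by each nuc list, against 55.9% for CTnuc and 64.3% for KDnuc. Of the 236 G4 DNA-IPdenat members between 3.81% and 8.90% were overlapped by any 1 of the AbC G4-ChIP lists, against 6.21% to 11.3% of its other peaks.

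CT and KD were compared in 3 pairs, nuc, ut and tr, for which an exact sign-flip test cannot go below 0.25. The subtelomeric share of peaks differed between KD and CT by 0.29 percentage points in nuc, 0.09 in ut and -0.23 in tr (mean 0.05 ± 0.26 SD, n = 3 pairs, exact p = 0.75, adjusted p = 0.938). The median GC content of the members was higher in KD in 3 of 3 pairs, by 0.11, 1.28 and 3.07 percentage points (mean 1.49 ± 1.49 SD, exact p = 0.25, adjusted p = 0.938). The median fold on the log2 scale differed by -0.11, 0.09 and 0.17 (mean 0.05 ± 0.14 SD, exact p = 0.75, adjusted p = 0.938). The tandem share differed by -7.17, 9.17 and -1.26 percentage points (mean 0.25 ± 8.27 SD, exact p = 1, adjusted p = 1). The shared share differed by -31.7, 4.26 and -2.225 points (mean -9.88 ± 19.2 SD, exact p = 0.75, adjusted p = 0.938). No measure could pass the test with 3 pairs, whatever its size.

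By region, no merged region was in all 3 KD lists and no CT list, and none in all 3 CT lists and no KD list. Regions in all 6 numbered 13. Among the 170 regions with an AbC G4-ChIP peak, 66 were in 1 KD list and no CT list, 53 of them in KDnuc and in no other list at all, and 21 in 1 CT list and no KD list. In the lists as a whole 56.9% of KDnuc peaks and 87.4% of CTnuc peaks were overlapped by another list, and KDnuc was the longer, so nothing is read from the larger number for KD.

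Genes were looked up in GENCODE, within the gene or 3 kb before its start. Of 92 genes and pseudogenes of the duplicated subtelomeric families in the windows 35 had a member, 22 of 24 for DUX4, 4 of 9 for DDX11L, 3 of 7 for WASH, 3 of 5 for FAM138, 1 of 4 for FAM157, 1 of 17 for OR4F and 1 of 16 for RPL23AP. None of the 2 FRG1, 3 FRG2 and 5 TUBB8 genes had one. In D4Z4, with copies every 3293 to 3310 bases, the 3 kb before a start can take in a peak of the neighbouring copy. DUX4L14 was counted in this way with members of 6 lists, although none overlapped it. The count for DUX4, and with it the 35 of 92, is thus not read as an excess. Outside the DUX4 family the most widely covered was WASH3P at 15q, with members of 6 lists. The olfactory receptor gene OR4F17 at 19p had members of 4 lists with a fold of up to 4.75.

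Of the 22 single-copy genes looked up 7 had a member. These were PTPRN2 (7 lists), ADAP1 and COX19 (5 lists), MUC6, a gastric mucin gene with a coding repeat (4 lists, fold of up to 4.81, over a repeat with a unit of 507 bases), EHMT1, a histone methyltransferase gene (3 lists, 7.25), SHANK3, which encodes a synaptic scaffold (G4 DNA-IPdenat alone, 9.09) and DIP2C (G4 DNA-IPdenat alone, 4.58). TERT, which encodes the catalytic part of telomerase, the globin genes HBA1, HBA2 and HBZ, and the oncogene HRAS had none. For all 1238 protein-coding genes of the windows the share with a member was 7.59%. The 22 genes were a list chosen with earlier results of these data known. ADAP1 and COX19 overlap and count the same peaks, so no excess is read from the 7.

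Members of AbC G4-ChIP lists often lay near annotated starts. In each of the 6 lists at least 36.5% of them reached within 1 kb of a GENCODE transcript start, against 5.345% to 7.67% of other autosomal peaks. The copies of DUX4 count among these starts. Of the peaks 2 to 10 Mb from the same ends 42% did in CTnuc, above the 39.2% of its members, and between 10.3% and 29.8% in the other 5 AbC G4-ChIP lists, with no test. In G4 DNA-IPdenat it was 6.78% against 1.93%, and 45.8% of its members were intergenic and 46.2% intronic. How much of the window sequence lies within 1 kb of a start was not computed. A copy at another chromosome end, with an identity of at least 90% over at least 50% of the peak, was found for 215 of the 691 members (31.1%), from 11.0% in G4 DNA-IPdenat to 48.2% in KDtr. In other autosomal peaks that share was at most 1.498% in any list. Such a copy had to lie in one of the windows that also defined the members. The share of window sequence with a copy of this kind was not computed, so no excess of the peaks is read from it. Members with such a copy can take reads from more than 1 end, and their place in the counts per end is uncertain. Copies anywhere in the genome were not particular to the members, with 64.7% in CTnuc against 71.7% of its other autosomal peaks. Members were also lower in KDnuc, CTut, G4 DNA-IPnat and G4 DNA-IPdenat, and higher in KDut, CTtr, KDtr and G4-ChIP.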

How the data were processed

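Peak lists of 9 libraries were used, in MACS2 broadPeak format on hg38. The deposited column 7 is the fold over the input, a ratio from MACS2 that the authors computed. For G4 DNA-IPdenat and the AbC lists the methods state that local background was switched off, with 0.01 as the cutoff for broad regions and 3000 as the bandwidth. For G4-ChIP and G4 DNA-IPnat they give a bandwidth of 300 and do not repeat the other options. The deposited -log10 p and -log10 q values are those of MACS2, and the deposited score was not used. The submitters' processing notes name minimap2 and MACS2 without versions. According to the methods the alignment target left out unplaced sequences, mitochondrial DNA and chromosome Y, and uniquely aligned reads were kept. The depth of the libraries was not analysed here. Peak names in CTnuc run to 10757 for 3796 peaks and in KDnuc to 22266 for 7753, so 64.7% and 65.2% of the numbered peaks of these lists are not analysed here.

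Distance was taken from the peak's midpoint to the assembled end. GC content, triplets of G or C at every base, the canonical signature, the hexamer TTAGGG on both strands and tandem repeats (windows of at least 50 bases) were computed from hg38 with Python 3.11.15, pysam 0.24.0 and numba 0.67.0, and genes came from GENCODE version 44. The 2-kb tiles covered all windows and every 40 kb elsewhere. Copies were found with minimap2 2.31, which can miss simple and satellite repeats. The naming rule took the 6 merged regions in the most lists, the strongest and the nearest member of each list, the 5 ends with the most members and those with none, the 3 regions in at least 2 lists with the largest tandem share (ties by number of lists), and regions in all KD or all CT lists alone. Lists with under 5 members were left out of medians, which in the main comparison was none and without tandem repeat peaks was G4-ChIP and G4 DNA-IPnat. The limit did not apply to comparison peaks, and G4 DNA-IPnat was kept with 1 peak 2 to 10 Mb from the ends. Members against other peaks were tested by an exact sign-flip permutation test over 9 lists and KD against CT over 3 pairs, with Benjamini-Hochberg adjustment over 5 measures in each. Replicate numbers of the labels stand for nuc, ut and tr, so the pairing is that of the protocol. Intervals are exact binomial and cover counting error only, and overlapping peaks of several lists share sequence. Scripts were tested on simulated data. The members and lists were chosen with earlier results of these data known. The reads and the 7 input libraries were not used here. One sequence, with the values of its region, is not reported here.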

Additional observations from a re-analysis of the deposited data

Results flagged for a closer look

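Peaks near the ends of the X chromosome are outside the counts of autosome ends. G4 DNA-IPdenat had 37 peaks within 2 Mb of these ends, 16 at the short and 21 at the long arm. This list is also the longest, with 15709 peaks. The other lists, of 226 to 7753 peaks, had between 0 and 2 there. No comparison used the X peaks. The 37 were not set against the sequence of these windows or against all X peaks of the list, so no excess is read from them.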

How the results depend on the processing

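The higher GC content of the members kept its direction under all alternatives, and passed the test in all but 3, those with peaks 2 to 10 Mb away as comparison (2.245, adjusted p = 0.199, exact permutation test), 1 value for each input (9.37) and without the KD lists (7.99). In the last 2 of these the exact p was the smallest that 7 and 6 values allow, 0.0156 and 0.0313 (adjusted p = 0.0781 and 0.156). Leaving out 1 list at a time gave 8.20 to 9.83. The share of peaks minus the share of sequence was 0.27 with a -log10 q of at least 4, 0.53 within 1 Mb, -4.21 within 5 Mb, -1.24 without tandem repeat peaks and -1.06 without the D4Z4 arrays, and the last 3 passed the test. Leaving out 1 list gave -0.86 to -0.43, and without G4 DNA-IPnat it passed. The log2 fold passed with a -log10 q of at least 4 (0.19), without 15q (0.19) and against peaks 2 to 10 Mb away (0.12), and ranged from 0.09 to 0.13 without 1 list. The tandem share passed against peaks 2 to 10 Mb away (29.8), and ran from 5.74 (without G4-ChIP) to 17.6 without 1 list. The shared share passed within 1 Mb (7.35) and against peaks 2 to 10 Mb away (20.95), was -0.95 within 5 Mb, and ranged from 2.46 to 7.01 without 1 list. Each comparison with peaks 2 to 10 Mb away included G4 DNA-IPnat, which had only 1 such peak. The causes were not tested.

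KD minus CT turned sign for the share of peaks within 1 Mb (-0.0053), without 15q (-0.030) and without tandem repeat peaks (-0.19), and for the tandem share within 1 Mb (-0.74), within 5 Mb (-2.04), without 15q (-0.10) and with a threshold of 70% (-0.58). Without 1 pair the share of peaks ran from -0.069 to 0.19, the GC content from 0.70 to 2.18, the log2 fold from -0.012 to 0.13, the tandem share from -4.21 to 3.96 and the shared share from -16.95 to 1.02. Without the pairing of the lists the values are the same, such as 0.05 for the share of peaks and 1.49 for the GC content, and no call changed in the test without that block, whose smallest p is 0.1.

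The members numbered 326 with a -log10 q of at least 4 and 1098 within 5 Mb. Depth was not analysed here, peaks were called on pooled replicates, and 2 of 9 lists are partial, so a peak's absence from a list does not show absence of signal.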
